A study of Mus musculus with 8 samples.

Results

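The Sfmbt2 cluster is a long array of repeated miRNA hairpins inside an intron of Sfmbt2, a mouse gene for a Polycomb-group protein. It was followed here through the 18 assays of a mouse miRNA panel set whose names begin with miR-466, miR-467, miR-669 or miR-297, with all letters, arms and star strands, out of 517 mouse miRNA assays in all. The assays were taken by name, whatever their values, but this set of names was chosen with earlier results of these data known. They comprised 6 miR-466, 8 miR-467, 1 miR-669 and 3 miR-297 assays, 9 on each of the 2 PCR panels. The table gave a raw Ct for each assay and sample, that is, the PCR cycle in which the signal first passed a threshold. A late, or high, Ct therefore stands for little RNA. An assay counted as detected at a Ct under 35.

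The 8 samples came from female apoe-/- mice, a strain without apolipoprotein E that forms atherosclerotic plaques. The mice were 6 to 8 weeks old when a diet with 21% crude fat and 0.15% cholesterol began, and ate it for 3 months. Tissue from at least 40 sections of 20 µm per mouse was gathered by laser capture microdissection and pooled for each mouse. There were 4 samples of early plaque, labelled aortic root, and 4 of morphologically normal wall, labelled artery and called undiseased artery here. All 8 shared the genotype and the diet, so no wild-type or chow-fed artery was part of the comparison. The site along the vessel and the presence of plaque cannot be told apart, and the labels do not say whether plaque and undiseased tissue came from the same mice. The study's 10-month arm was not analysed here. The samples are numbered 1 to 4 in each group.

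The hairpins of this cluster arose by tandem duplication in rodents, so that several genes carry 1 name and the mature strands of different names are closely alike. In the mouse the cluster is known from the embryo and the placenta, where the paternal allele is the one expressed and where loss of the cluster disturbs placental growth. A hairpin gives a 5p and a 3p strand, and the assay names follow an old catalogue in which a star marks the strand thought to be less abundant. A short PCR assay can cross-react with a near-identical strand, and this was not tested.

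The names were checked against RefSeq's mouse annotation, GRCm38.p6. It holds 81 miRNA genes with these 4 family names, 71 inside Sfmbt2 and 10 elsewhere. Of the 18 assays 17 matched a RefSeq gene by name, each with at least 1 copy inside Sfmbt2, and miR-466a-3p was unmatched. For 12 assays the match was a single gene. The miR-669a name stood for 12 genes, the miR-467a name, with its star strand, for 10, miR-297a for 4 and miR-466c for 2. All the matched copies lay in Sfmbt2 except 1 of the 4 miR-297a genes, Mir297-1 on chromosome 7. A value of miR-297a* therefore cannot be assigned to the cluster alone, and a value of miR-467a or miR-467a* is a sum over copies.

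The hairpin of Mir297-1 is shown because it is the copy outside Sfmbt2 and because its sequence is in RefSeq's table. It is given as RNA, 5′ to 3′, from RefSeq GRCm38.p6, chr7:10958437-10958512, minus strand. The capitals mark the longest run in which purines and pyrimidines alternate.
Mir297-1: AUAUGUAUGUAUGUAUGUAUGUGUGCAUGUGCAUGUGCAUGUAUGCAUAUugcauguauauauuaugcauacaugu
The alternating run covered bases 1 to 50 of 76, and U and G made up 64.5% of the hairpin. The mature strands of the 18 assays are named only.

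Most of the assays gave no signal. Of the 18 assays 8 were detected in at least 1 sample and 10, or 55.6%, in none, against 34.8% never detected over the 517 assays. The 10 silent assays were miR-297b-5p, miR-297c, miR-466h, miR-467c and miR-669a on panel 1 and miR-466a-3p, miR-466b-3-3p, miR-466c-5p, miR-466d-5p and miR-467e* on panel 2. They read a Ct of 40, the value for no amplification, in each of the 8 samples. miR-669a, whose mouse name covers the largest number of RefSeq copies here and which is known for repressing MyoD in mouse cardiac progenitors, was among them. The assay of the 3p strand of miR-466d, a name with a single RefSeq gene, gave a signal in every sample. Whether the number of copies bears on detection was not tested.

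**Figure D1:**
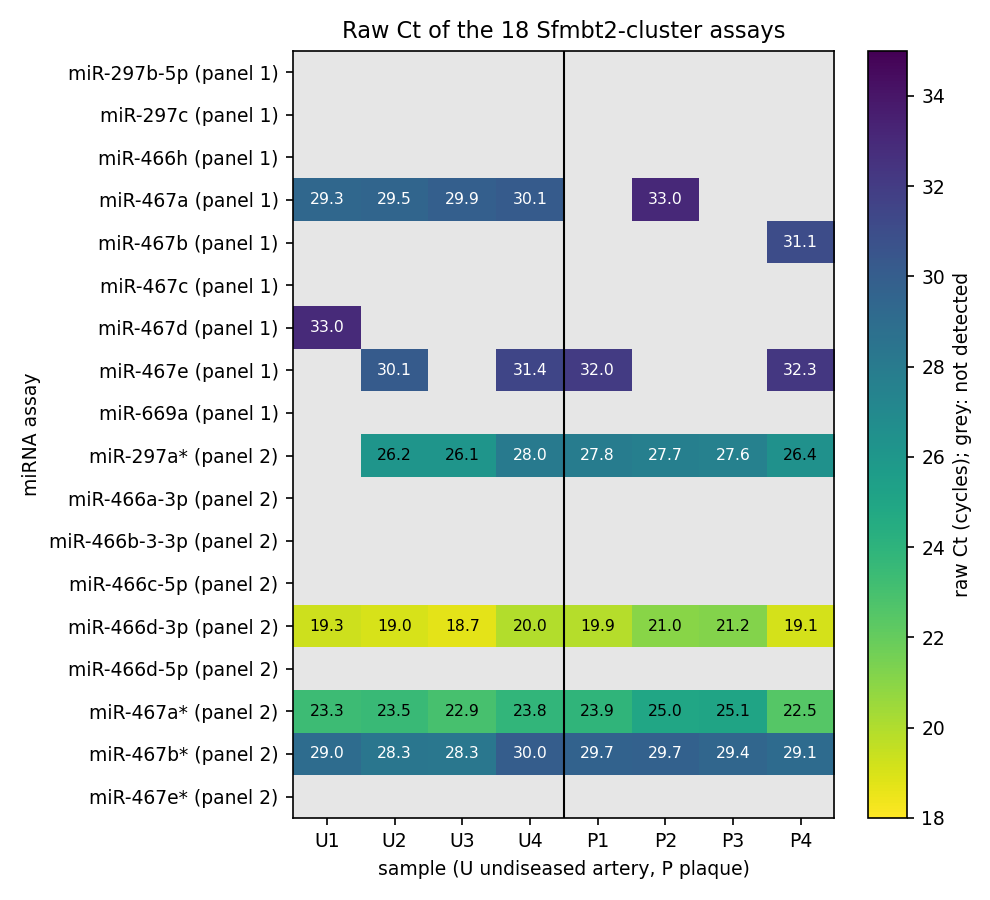
Raw Ct (cycles, colour and number) of the 18 assays (rows, with their panel) in undiseased artery 1 to 4 (U1 to U4) and plaque 1 to 4 (P1 to P4). Grey cells were not detected at a Ct under 35. Of the 18 rows 10 are grey throughout, 3 panel 2 rows (miR-466d-3p, miR-467a* and miR-467b*) are filled in all 8 samples, and miR-467a is filled in the 4 undiseased samples and in plaque 2.

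Between 4 and 6 of the assays were detected in a sample. Undiseased artery 1 to 4 detected 5, 6, 5 and 6 of the 18, and plaque 1 to 4 detected 5, 5, 4 and 6. These are shares of 27.8%, 33.3%, 27.8% and 33.3% in undiseased artery, and of 27.8%, 27.8%, 22.2% and 33.3% in plaque. The groups overlapped, with the lowest share in plaque 3. The mean share was 30.6% ± 3.21 in undiseased artery and 27.8% ± 4.54 in plaque (SD, n = 4 each). Over all 517 assays the shares were 51.0% ± 5.05 and 38.4% ± 8.61. The 9 assays on panel 2 had shares of 41.7% ± 5.56 in undiseased artery and 44.4% in each plaque sample, beside 47.8% ± 3.87 and 37.7% ± 8.25 for panel 2 assays with other names. Among these 9 the samples differed in 1 reading alone, that of miR-297a*, which was not detected in undiseased artery 1. The 9 on panel 1 had shares of 19.4% ± 5.56 and 11.1% ± 9.07, beside 53.8% ± 6.26 and 39.4% ± 9.11 for panel 1 assays with other names.

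The Dlk1-Dio3 miRNAs, from the other large imprinted miRNA cluster active in the mouse placenta, were set beside them. The 64 assays were taken from a list of names, miR-345 among them, whose positions were not checked. Of these 64 Dlk1-Dio3 assays 40.6% were never detected. Their share detected was 41.4% ± 8.98 in undiseased artery and 24.6% ± 8.59 in plaque. Whether the shares of the sets differ in how they move was not tested.

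**Figure D2:**
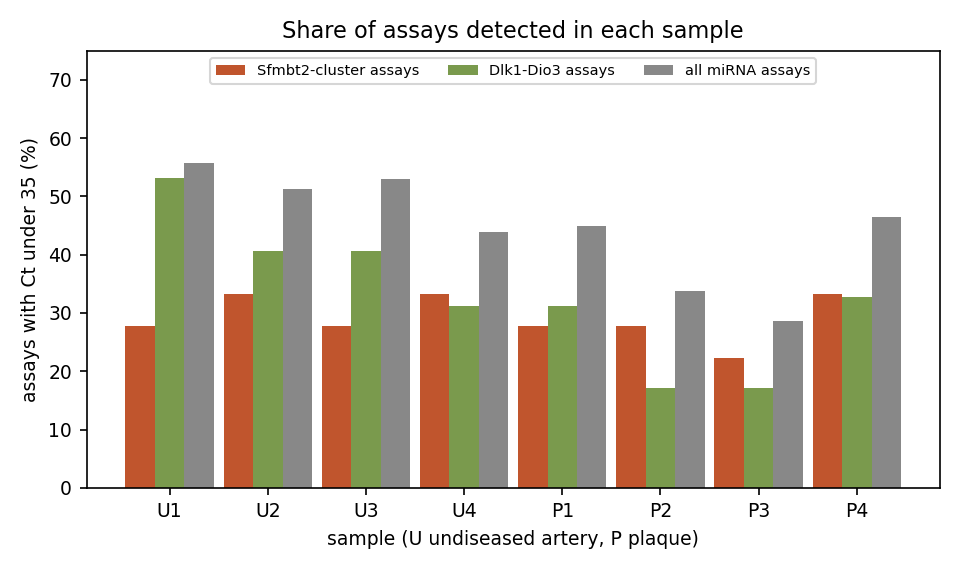
Share of assays with a Ct under 35 (%, bars from 0) in undiseased artery 1 to 4 (U) and plaque 1 to 4 (P), for the 18 Sfmbt2-cluster assays, 64 Dlk1-Dio3 assays and all 517 miRNA assays. The Sfmbt2-cluster share stays between 22.2% and 33.3%, while the share over all assays runs from 28.6% in plaque 3 to 55.7% in undiseased artery 1.

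Mean raw Ct varied between samples, and the groups overlapped. Over the 124 miRNAs with a Ct under 35 in all 8 samples, raw Ct averaged 25.3 ± 0.885 in undiseased artery and 28.0 ± 1.65 in plaque, latest in plaque 2 (28.8) and plaque 3 (29.9). In captured tissue fewer cells of a type and less RNA per cell cannot be told apart. To compare levels, this mean was subtracted from each sample's Ct and the sign turned, so that a level is in cycles and a difference of 1 is 2-fold if amplification is fully efficient. Levels of different assays are not comparable. As a check of the tissue labels, the smooth muscle markers miR-143 and miR-145 were both detected in all 8 samples and both lower in plaque. Their summed level was 9.40 to 10.34 in undiseased artery and 4.02 to 5.44 in plaque. A summed level is the log2 of the markers' levels added on the linear scale, with a marker not detected left out. The assay with the highest level weighs most in it, though levels of different assays are not comparable. Of 5 tested leukocyte markers 2, miR-146b and miR-155, were higher in plaque and 0 lower. miR-142-3p (difference in level -0.22), miR-150 (-0.85) and miR-223 (0.50) did not pass. Summed levels were 3.27 to 14.30 and 1.88 to 18.50, and miR-223, highest of the 5 by mean level, was detected in 3 plaque samples. miR-142-5p, the marker not tested, was found in 4 undiseased samples and 1 plaque sample. Endothelial miR-126-3p (-1.15) and miR-126-5p (-2.02) and red cell miR-451 (-1.56) did not pass. Of 3 tested heart muscle markers 0 passed, with summed levels of 3.10 to 4.15 and -2.13 to 6.04, and miR-208, which heart myosin genes carry, appeared in 0 undiseased and 2 plaque samples. The parts of cell content and of this shift in Ct in the results below were not tested.

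Of the 18 assays 4 were detected in at least 3 samples of each group and entered the comparison of levels, which ran over 172 miRNAs with limma (Benjamini-Hochberg adjustment over the 172). The 4 were miR-466d-3p, miR-467a*, miR-467b* and miR-297a*, all of panel 2. Relative to the mean of the 124 miRNAs, 3 of the 4 were higher in plaque and 0 were lower, with differences of 1.64 to 2.12 on the log2 scale. Over all 172 tested miRNAs 34.3% were called, 15.7% higher and 18.6% lower, and over the 63 tested on panel 2 31.7% were called higher. The median difference was 1.99 for the 4 assays, -0.11 for the 172 and 0.82 for panel 2. The other 14 assays had no such level in both groups, so these values describe 4 assays and not the cluster.

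miR-467a* is the star strand of the miR-467a hairpins, and the miR-467 name is known in mouse endothelium for holding down thrombospondin-1, an inhibitor of vessel growth, under high glucose. Undiseased artery 1 to 4 read a raw Ct of 23.3, 23.5, 22.9 and 23.8, and plaque 1 to 4 one of 23.9, 24.97, 25.1 and 22.5. Its level was 1.68, 1.53, 1.74 and 2.87 in undiseased artery and 3.25, 3.87, 4.83 and 3.78 in plaque. All 4 plaque samples lay above all 4 undiseased samples, of which undiseased artery 4 was the nearest. The mean level was 1.96 ± 0.61 in undiseased artery and 3.93 ± 0.66 in plaque (SD, n = 4 each), 3.93-fold higher (log2 difference 1.98, SE 0.508, limma adjusted p = 0.0174).

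miR-467b* comes from the single Mir467b gene of the same array. In undiseased artery 1 to 4 its level was -3.96, -3.32, -3.57 and -3.33, and in plaque 1 to 4 it was -2.54, -0.89, 0.56 and -2.82. The groups did not overlap, but plaque 1 and 4 lay close to the undiseased samples and plaque 2 and 3 far above them. The mean was -3.54 ± 0.30 against -1.42 ± 1.57 (SD, n = 4 each), 4.35-fold higher in plaque (log2 difference 2.12, SE 0.702, limma adjusted p = 0.0407). On raw Ct undiseased artery read 29.0, 28.3, 28.3 and 30.0 and plaque 29.7, 29.7, 29.4 and 29.1, so that all 4 plaque samples fell inside the undiseased range.

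miR-466d-3p amplified early, at a raw Ct of 19.3, 19.0, 18.7 and 20.0 (undiseased artery 1 to 4) and of 19.9, 21.0, 21.2 and 19.1 (plaque 1 to 4). Its level was 5.71, 6.00, 6.01 and 6.67 in undiseased artery and 7.22, 7.80, 8.74 and 7.18 in plaque, again without overlap. The mean was 6.10 ± 0.41 against 7.74 ± 0.73 (SD, n = 4 each), 3.11-fold higher in plaque (log2 difference 1.64, SE 0.493, limma adjusted p = 0.0315).

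miR-297a*, the star strand of a name with copies inside and outside Sfmbt2, did not pass. It read a Ct of 40 in undiseased artery 1, which the fit therefore left out, whereas undiseased artery 2 to 4 read 26.2, 26.1 and 28.0. Plaque 1 to 4 read 27.8, 27.7, 27.6 and 26.4. Undiseased artery 2 to 4 stood at levels of -1.15, -1.42 and -1.40 and plaque at -0.70, 1.17, 2.36 and -0.15, with no overlap among the samples that detected it. The log2 difference was 1.99 (SE 0.72, 3 undiseased and 4 plaque samples, limma adjusted p = 0.0545). With undiseased artery 1 set to a Ct of 35 in place of missing, it was 4.16 (SE 1.84, limma adjusted p = 0.111).

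In all 4 assays plaque samples lay above the undiseased samples that detected the assay. The same held for 14% of the 172 tested miRNAs and for 30.2% of the 63 on panel 2. Plaque 3 had the highest level and plaque 2 the second highest within plaque in each of the 4 assays, and these are the samples with the latest mean Ct. Level and mean Ct are not independent here, since a level is counted from the sample's mean raw Ct. Without plaque 2 and 3 together, a fit chosen after seeing the data, 0 of the 4 were called. Over the 170 miRNAs in that fit 8.82% were called higher. The differences were 1.56 for miR-467a* (limma adjusted p = 0.0647), 1.10 for miR-466d-3p (0.134), 0.86 for miR-467b* (0.221) and 0.90 for miR-297a* (0.239).

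**Figure D3:**
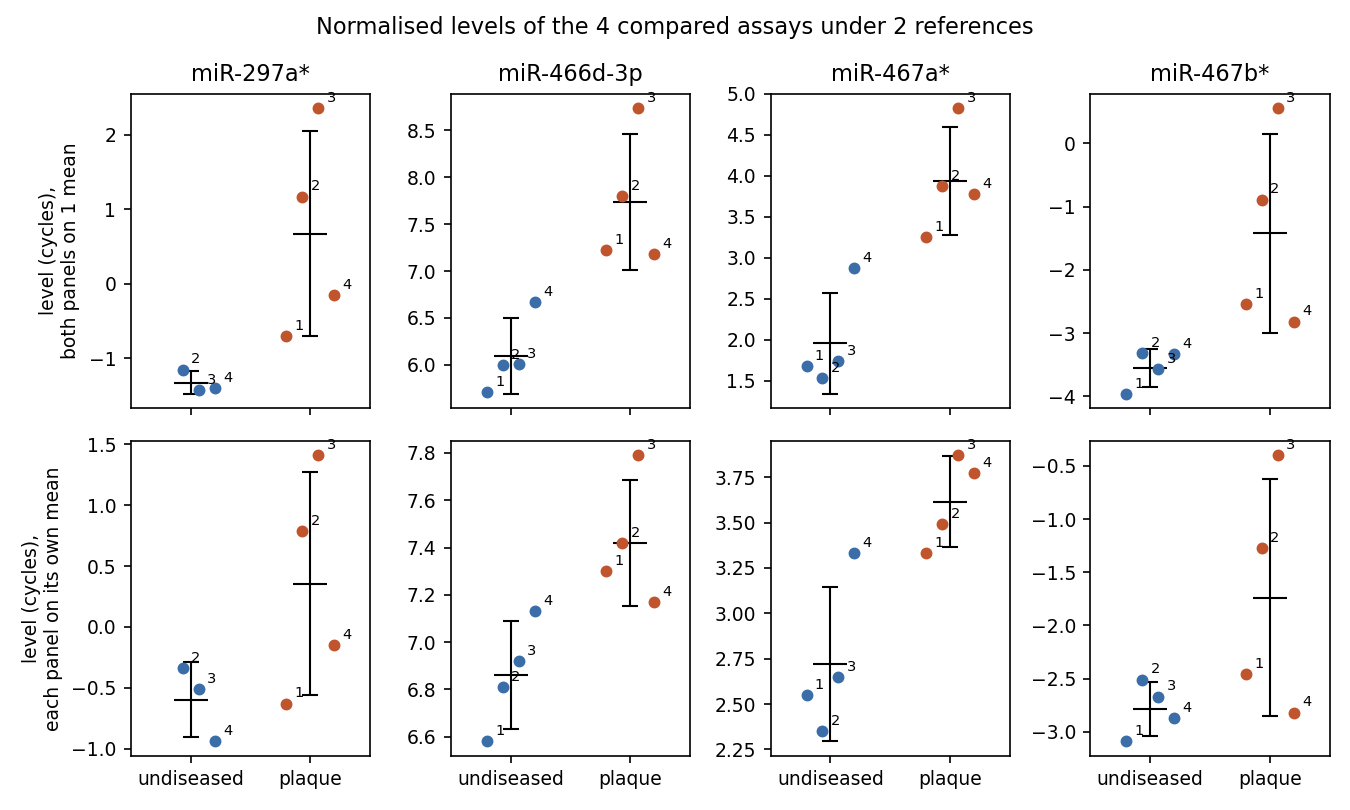
Levels (cycles; higher means more RNA) of the 4 compared assays in undiseased artery (blue) and plaque (orange). Numbers are sample numbers, horizontal ticks the means and bars the SD over samples, with both panels on 1 mean in the upper row and each panel on its own mean in the lower row. The groups are apart in the upper row, and in the lower row they overlap for miR-297a* and miR-467b* and meet for miR-467a*.

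The 4 assays stood higher in plaque with each reference tried, though not always with a call, and did not on raw Ct. On raw Ct, before any reference was subtracted, the 4 assays amplified later in plaque, by 0.72 cycles for miR-467a*, 0.57 for miR-467b*, 1.06 for miR-466d-3p and 0.60 for miR-297a*, and none passed (limma adjusted p = 0.319 to 0.622). The mean of the 124 miRNAs was later by more, so the 4 stood higher relative to it. From the earliest to the latest sample, the raw Ct of miR-467b* spanned 1.72 cycles, miR-466d-3p 2.50 and miR-467a* 2.61, while the mean raw Ct spanned 3.37 cycles over the commonly detected miRNAs of their own panel 2, 6.19 over those of panel 1 and 5.24 over the 124 of both. Among these 124 miRNAs they ranked 5, 10 and 11 from the smallest span, and the same within the 42 of panel 2, whose median span was 3.71.

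**Figure D4:**
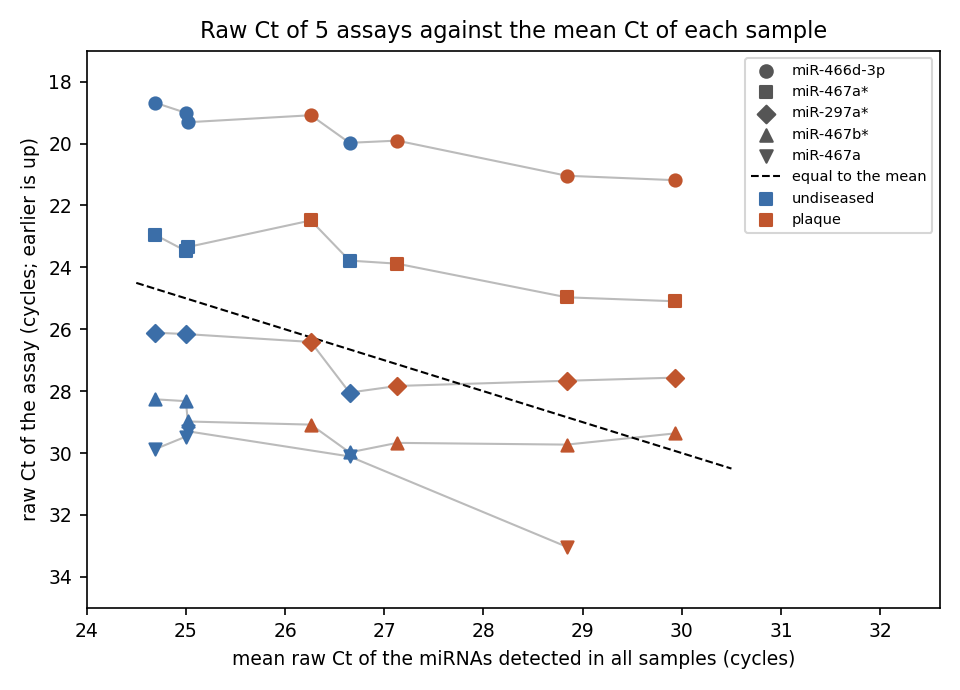
Raw Ct of 5 assays (cycles, axis turned so that earlier amplification is up) against each sample's mean raw Ct over the 124 reference miRNAs (cycles), 1 point per sample that detected the assay, undiseased artery in blue and plaque in orange. The dashed line marks a Ct equal to the mean, and the points of miR-466d-3p, miR-467a*, miR-467b* and miR-297a* run flatter than it.

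The PCR panel moved with the result. The median log2 difference was -0.73 over the 109 tested miRNAs of panel 1 and 0.82 over the 63 of panel 2, where 20 were called higher and 2 lower. Without the 4 Sfmbt2-cluster assays, panel 2 had a median of 0.66 with 17 of 59 called higher, and 20 of these 59 had a difference above that of miR-466d-3p. With each panel centred on the mean of its own commonly detected miRNAs, the differences were 0.90 for miR-467a* (SE 0.387, limma adjusted p = 0.115), 1.04 for miR-467b* (SE 0.551, adjusted p = 0.168), 0.56 for miR-466d-3p (SE 0.363, adjusted p = 0.259) and 0.95 for miR-297a* (SE 0.562, adjusted p = 0.214). They kept their sign, 0 of the 4 were called, and over all 172 miRNAs 8.72% were called higher under this centring. In these levels the highest undiseased sample met the lowest plaque sample at 3.33 for miR-467a* and exceeded it for miR-467b* (-2.51 against -2.82) and miR-297a* (-0.34 against -0.63), and for miR-466d-3p it stayed below it (7.13 against 7.17).

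**Figure D5:**
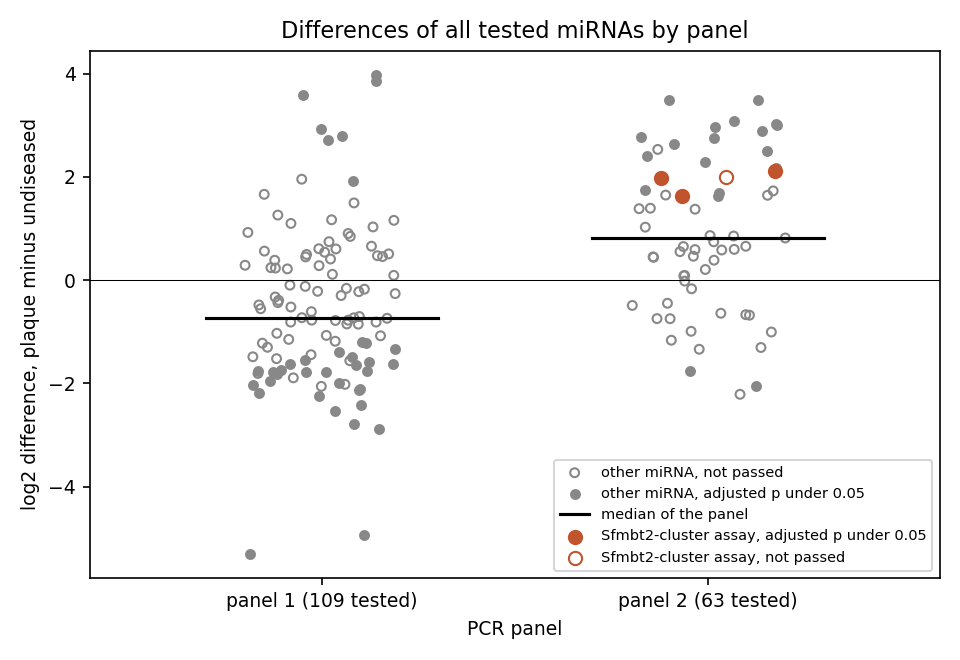
Log2 difference (plaque minus undiseased) of each of the 172 tested miRNAs, by PCR panel, with the panel's median as a bar. Filled points have an adjusted p under 0.05. The 4 Sfmbt2-cluster assays (orange) lie between 1.64 and 2.12, above the panel 2 median of 0.82 and among other panel 2 miRNAs called higher.

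With control RNAs or U6 as the reference 0 of the 4 passed. Their differences were 1.19 to 1.84, with limma adjusted p of 0.337 to 0.672. Over all 172 miRNAs 0 were called higher with either of these references. When each sample's mean Ct was added as a covariate, a fit also chosen after seeing the data, the differences were 0.07 to 0.92. In that fit 0 of the 4 passed, and 4.07% of the 172 were called higher. The 3 calls were also lost without undiseased artery 1, 2 or 3, where 8.14%, 6.98% and 7.56% of the 172 were called higher. Without plaque 3 miR-467a* alone stayed called, and 12.2% of the 172 were called higher. miR-467b* also lost its call without undiseased artery 4 or plaque 2.

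miR-467a, the strand without a star from the same hairpins as miR-467a*, was detected in fewer plaque than undiseased samples. The test used had no means to call such a difference. It was found in 4 of 4 undiseased samples, at a raw Ct of 29.3, 29.5, 29.9 and 30.1, and in 1 of 4 plaque samples, plaque 2, at 33.0. Fisher's exact test on the samples, two-sided, gave p = 0.143 (adjusted over the 517 assays, 1). At a stricter cutoff of a Ct under 32 the counts were 4 and 0 of 4 (Fisher's exact p = 0.0286, adjusted 1). For Fisher's exact test 0.0286 is the lowest p with 4 samples a group, too high for a single assay to pass after adjustment over 517 assays. Of all 517 assays 15.1% were detected in at least 3 undiseased and fewer than 3 plaque samples, and 0.387% the other way round.

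Depth limits what the missing values say. Undiseased artery 1 to 4 had miR-467a levels of -4.27, -4.46, -5.18 and -3.46, and the level of -4.19 in plaque 2 lay inside that range. A Ct of 35 corresponds to a level of -7.87 in plaque 1, -5.07 in plaque 3 and -8.74 in plaque 4. If a missing reading means a Ct of 35 or later, the level in plaque 1 and 4 was below all 4 undiseased samples. In plaque 3 a level like that of undiseased artery 3 would have gone undetected. A missing reading need not mark a low level: miR-297a* read 40 in undiseased artery 1 and 26.1 to 28.0 in undiseased artery 2 to 4. What the missing readings of miR-467a mean was not tested. Among 20 other panel 1 miRNAs found in all undiseased samples within 1 cycle of the mean Ct of miR-467a (29.7), 3 were detected in at most 1 plaque sample and 6 in all 4. Of these 20, 1 was missing in plaque 1, 9 in plaque 2, 12 in plaque 3 and 4 in plaque 4.

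Both strands of a hairpin were assayed for 4 names, and in 3 of them a single strand made up nearly all detections. For the miR-467a hairpins the strand without a star amplified 5.95, 6.00, 6.93 and 6.33 cycles after the star strand in undiseased artery 1 to 4. The gap was 8.06 cycles in plaque 2 and at least 11.12, 9.91 and 12.52 cycles in plaque 1, 3 and 4, where the strand without a star was not detected. In plaque 2, where both strands were detected, the gap was wider than in any undiseased sample. A gap given as at least, here and below, counts a missing reading as a Ct at the detection cutoff or later. On that assumption, which was not tested, the gaps in plaque 1, 3 and 4 were also wider than in any undiseased sample. The strands sit on different panels and their assays differ in efficiency, so the gap within a sample is no ratio of molecules, and the part of the panels in its change was not tested.

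For miR-466d the 3p strand was detected in 8 samples and the 5p strand in 0, both on panel 2, with a gap of at least 13.82 to 16.32 cycles. For miR-467b the star strand was found in 8 samples and the other strand in 1, plaque 4, at a Ct of 31.1. In that sample the strands were 1.97 cycles apart, while in the other 7 the gap was at least 5.02 to 6.74. For miR-467e it was the strand without a star that appeared, in 4 samples against 0 for the star strand. The star in the old catalogue thus did not mark the strand detected in fewer samples for miR-467a and miR-467b, and did for miR-467e.

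The remaining detections were scattered. miR-467e was detected in undiseased artery 2 (Ct 30.1) and 4 (31.4) and in plaque 1 (32.02) and 4 (32.26), 2 samples in each group. miR-467d was detected in undiseased artery 1 alone, at a Ct of 33.0. Undiseased artery 1 and 3, which detected 288 and 274 of the 517 miRNAs, gave no miR-467e, while plaque 1 and 4, with 232 and 240, did.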

How the data were processed

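The authors deposited raw Ct of real-time PCR for 8 samples, neither normalised nor pooled as far as the values show, with 40 for no amplification. Per the labels, RNA came from a RecoverAll extraction and the dye was FAM. The sources used here give no instrument, reverse transcription, preamplification or software. The second panel starts where the control RNAs repeat. The title of plaque 4 calls it replicate 4 and its description replicate 3, and the title was used. The labels call the samples biological replicates.

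A Ct of 35 or above was treated as missing. The 172 miRNAs with 3 or 4 detections in both groups were fitted on group alone with limma 3.58.1 (lmFit, then eBayes, two-sided) under R 4.3.3 at an adjusted p threshold of 0.05. Detection was compared by Fisher's exact test on samples, adjusted over 517 assays. Shares of members detected were described with no test. The fit was tested on simulated tables with known changes, in which noise was independent between miRNAs. No shift between panels or with mean Ct was set in them, so they do not bear on the shifts described above. Members, marker lists, the Dlk1-Dio3 list and the alternatives were chosen with earlier results of these data known. All members that were compared, or detected in at least 3 samples of 1 group, are named. Fits without 1 sample kept the 172 miRNAs and the 124 reference miRNAs, as far as 2 samples a group remained. The files name no genome build, so the annotation gave names and neighbours alone, and coordinates belong to the RefSeq hairpin.

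Same-numbered samples of the groups did not deviate together (correlations over the 124 miRNAs of 0.13, 0.19, -0.24 and -0.16 for numbers 1 to 4), so the numbers were not taken to pair them.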

Additional observations from a re-analysis of the deposited data

Results flagged for a closer look

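Of 12 groups of 4 values tested with Dixon's criterion, 2 held a sample far from the others, and chance flags about 1 in 20. Both concern undiseased artery 4 and are not independent, since a level is counted from the sample's mean raw Ct. Its raw Ct of miR-467a* was 23.8, with the other undiseased samples at 22.9 to 23.5. Its level of miR-467a* was 2.87, with the other undiseased samples at 1.53 to 1.74 (gap over range 0.844). The mean raw Ct of its 124 commonly detected miRNAs was 26.65, with the others at 24.69 to 25.02 (gap over range 0.83). Without undiseased artery 4 the difference of miR-467a* was 2.28.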

How the results depend on the processing

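The count of Sfmbt2-cluster assays called higher was 3 of 4, and 0 were called lower in any alternative. It was 0 with the control RNA, U6, panel and raw Ct references, with mean raw Ct as covariate and without plaque 2 and plaque 3 together (the last 2 chosen after seeing the data), 1 with quantile normalization, and 0 to 4 with 1 sample left out. All tested calls numbered 59, then 2 with control RNAs, 2 with U6, 35 with each panel centred, 13 with the covariate, 36 without plaque 2 and plaque 3, 81 on raw Ct, 62 with at least 2 detections a group and 19 to 79 with 1 sample left out. Calls split 27 higher to 32 lower, 11 to 37 with quantile normalization, 0 to 81 on raw Ct and 0 to 2 with control RNAs or U6.

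miR-466d-3p, miR-467a* and miR-467b* lost their calls with control RNAs (1.19, 1.53 and 1.67), U6 (1.19, 1.53 and 1.68), each panel centred (0.56, 0.90 and 1.04), the covariate (0.52, 0.92 and 0.07) and without plaque 2 and plaque 3 (1.10, 1.56 and 0.86). Quantile normalization ended those of miR-466d-3p (0.70) and miR-467b* (1.41), and setting values not detected to the cutoff that of miR-467b* (2.12, adjusted p = 0.0595), with miR-297a* at 4.16, not called. With raw Ct the differences turned to -1.06, -0.72 and -0.57, and to -0.60 for miR-297a*, not called. The cause was not tested.

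With 1 sample left out, differences were 1.30 to 1.83 for miR-466d-3p (called in 4 of 8 fits), 1.68 to 2.28 for miR-467a* (5 of 8), 1.46 to 2.59 for miR-467b* (2 of 8) and 1.43 to 2.45 for miR-297a* (2 of 8). With replicate number as a block, which the correlations above do not bear out as pairs, 49 miRNAs were called, miR-297a* passed (2.45, on 3 pairs) and miR-466d-3p did not (1.64, adjusted p = 0.054). Detection cutoffs of 32 and 38, the median reference and the filters on detection kept the calls of miR-466d-3p, miR-467a* and miR-467b*. The share of assays detected was 30.6% and 27.8%, for panel 2 assays alone 41.7% in undiseased artery and 44.4% in plaque. With 1 sample left out it was 29.6% to 31.5% and 25.9% to 29.6%.

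Depth limits the low assays: in plaque 3 a level under -5.07 could not be seen. With 4 samples a group Fisher's exact test cannot go below 0.0286.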
